A study of Mus musculus with 4 samples.

Results

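The genes described here belong to the futile cycles of creatine and calcium, through which fat cells can turn ATP into heat without the uncoupling protein Ucp1. The set had 10 genes: the creatine kinases Ckb, Ckmt1 and Ckmt2, the creatine synthesis enzymes Gatm and Gamt, the creatine transporter Slc6a8, the phosphatase Alpl, the calcium pumps Atp2a1 and Atp2a2 and the calcium release channel Ryr2. A probe set was assigned to a gene when the platform annotation gave it exactly 1 gene symbol. By that rule 6 of the 23599 probe sets tested belonged to the set, and they covered 4 of the 10 genes: 1 for Gamt, 2 for Slc6a8, 1 for Atp2a1 and 2 for Atp2a2. The other 6 genes (Ckb, Ckmt1, Ckmt2, Gatm, Alpl and Ryr2) were not analysed here.

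In the creatine cycle, creatine is phosphorylated by a creatine kinase at mitochondria and the phosphocreatine is hydrolysed again, so that ATP is spent with no net product. Cells obtain creatine by synthesis, in which Gatm makes guanidinoacetate and Gamt methylates it, or by uptake through Slc6a8. In the calcium cycle a SERCA pump, the product of an Atp2a gene, moves calcium into the endoplasmic reticulum at the cost of ATP, and release channels such as ryanodine and inositol trisphosphate receptors let it out again. SERCA2, from Atp2a2, is present in most cell types, and SERCA1, from Atp2a1, is typical of fast skeletal muscle. The calcium cycle has been described mainly in beige fat, and the creatine cycle in beige and brown fat.

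Wild-type mouse brown adipocytes that expressed Blnc1, a long noncoding RNA (brown fat lncRNA 1), were compared with wild-type brown adipocytes carrying the vector, both after 6 days of differentiation from preadipocytes. Each group had 2 arrays, which the labels call biological replicates, and no label says whether separate transductions lay behind them. A p-value here reflects the spread between replicates of these 4 arrays, pooled in part over all probe sets, and that spread may be technical. Precision is limited by the number of arrays. The kind of vector, its promoter and the origin of the preadipocytes are not given in the sources used here.

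The labels and the cell type were checked first. The brighter probe set of C730029A08Rik, a symbol listed in the reference table with Blnc1 as a synonym of Paqr9, read 12.73 and 12.75 log2 units in the Blnc1 arrays, against 8.08 and 8.14 in the vector arrays. Its dimmer probe set (-0.31 ± 0.14 SE) and that of Paqr9 (-0.50 ± 0.11 SE) had negative log2 fold changes and did not pass. Of 7 measured brown adipocyte markers 6 rose, among them Ucp1 (log2 fold change 2.997 ± 0.078 SE), and Elovl3 did not pass (0.27 ± 0.083). None of 5 general adipocyte markers passed. Adipoq read 12.79 and 12.74 in the Blnc1 arrays, against 12.89 and 12.88 in the vector arrays. Cebpa had the largest difference of the 5, at -0.23 ± 0.088 (SE, limma adjusted p = 0.231). Array medians lay between 5.98 and 6.04 log2 units. The 18 hybridization control probe sets all had lower means in Blnc1 arrays (Blnc1 minus vector, median -0.27). The 3' minus 5' signal of Gapdh, a sign of RNA quality, was 0.28 in Blnc1 and 0.41 in vector arrays on average. That of Actb was larger, at 1.34 in Blnc1 and 1.51 in vector arrays. The part of these shifts in the values below was not tested.

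Forced expression of Blnc1 was accompanied by no detectable change in Gamt, Slc6a8, Atp2a1 or Atp2a2. None of their 6 probe sets had an adjusted p under 0.05 by limma (Benjamini-Hochberg adjustment over all 23599 probe sets), and none reached an unadjusted p under 0.05. Over all probe sets 0.928% passed the adjusted threshold (0.623% higher and 0.305% lower in Blnc1 cells), and 18.9% had an unadjusted p under 0.05. A count of 0 among 6 is too small to be set apart from either share. On all 6 probe sets the Blnc1 and vector arrays overlapped, whereas the groups did not overlap for 50.4% of all probe sets. In each case the difference between group means was also smaller than the larger of the gaps between replicate arrays. The median log2 fold change of the 6 was 0.0049, beside 0.0056 over all probe sets, with 4 positive and 2 negative values where 51.3% of all probe sets were positive.

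**Figure D1:**
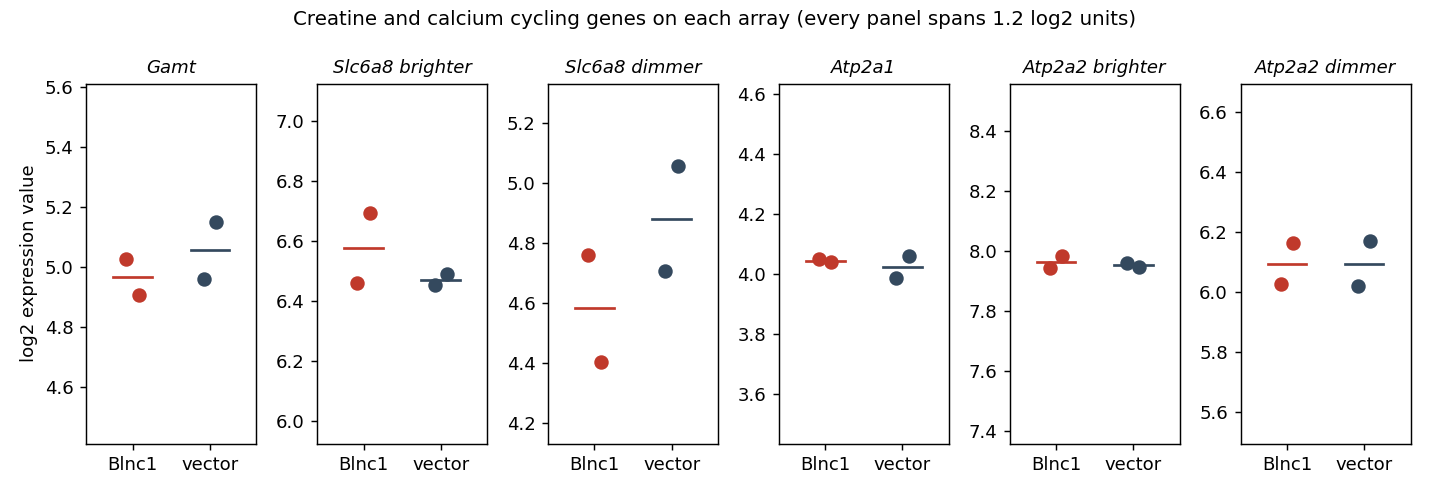
Log2 expression value (vertical axis) of each of the 6 probe sets on the Blnc1 (red, left) and vector (dark, right) arrays. Points are arrays, horizontal lines are group means (n = 2 each), and every panel spans the same range. The groups overlap in all 6 panels.

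The creatine genes are taken first. Gamt, which completes creatine synthesis, was read by probe set 1422558_PM_at, at 5.03 and 4.91 log2 units in the Blnc1 arrays, against 4.96 and 5.15 in the vector arrays. The groups overlapped, since the higher Blnc1 array lay between both vector arrays. The means were 4.97 ± 0.085 in Blnc1 cells and 5.05 ± 0.13 in vector cells (SD, n = 2 each), which is a difference of -0.088 ± 0.099 log2 units (SE, limma adjusted p = 0.688). Its 95% interval ran from a fold of 0.796 to a fold of 1.11. All 4 arrays read this probe set below their own median, in the range where RMA values compress differences.

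Slc6a8, which carries creatine into the cell, had 2 probe sets that share 1 source sequence in the annotation. The brighter, 1417116_PM_at, read 6.46 and 6.69 in the Blnc1 arrays, against 6.45 and 6.49 in the vector arrays. Blnc1 replicate 2 was the highest array, and Blnc1 replicate 1 lay between the vector arrays. The log2 fold change was 0.11 ± 0.10 (SE, limma adjusted p = 0.628), with a 95% interval of -0.14 to 0.36. Without Blnc1 replicate 2 it was -0.011, so the positive value rests on that array.

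The dimmer Slc6a8 probe set, 1448596_PM_at, read 4.76 and 4.40 in the Blnc1 arrays, against 4.71 and 5.05 in the vector arrays. Here Blnc1 replicate 2 was the lowest array, and vector replicate 2 the highest, and all 4 arrays read this probe set below their own median. It had the lowest p of the 6 and the largest difference, with a fold change of -0.30 ± 0.16 on the log2 scale (SE, limma unadjusted p = 0.118, adjusted p = 0.391). The 95% interval, -0.70 to 0.10, included both no change and a fold of 0.616. Replicate arrays differed by 0.36 in Blnc1 cells and 0.35 in vector cells, more than on 94.7% and 95.5% of all probe sets. Of all probe sets 88.5% had a smaller absolute difference between the groups.

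The probe sets of Slc6a8 thus pointed in opposite directions, and the 95% interval of each included 0. The brighter minus the dimmer probe set was 1.70 and 2.29 log2 units in the Blnc1 arrays, against 1.75 and 1.43 in the vector arrays. These values overlap, and the difference of 0.40 had an exact two-sided permutation p of 0.667, where 2 arrays against 2 cannot give less than 0.333. Slc6a8 is X-linked, and the groups differed in sex-linked transcripts. On their brightest probe sets, Xist stood at 0.55 ± 0.077 (SE), and the Y-linked Eif2s3y, Uty and Kdm5d at -1.18, -1.02 and -0.87 (Blnc1 minus vector). The 332 X-linked genes measured besides Xist had a median log2 fold change of 0.012, beside 0.0073 over all genes, and 1 of them passed. The part of the sex-linked difference in the Slc6a8 values was not tested.

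By a rule based on the smallest distance between mean-centred values over the 4 arrays, the genes whose readings were most like the dimmer Slc6a8 probe set were Pif1, Smg1 and Ramp2, at distances of 0.046, 0.053 and 0.057 log2 units. They stood at log2 fold changes of -0.33, -0.30 and -0.28, and none of the 3 passed (limma adjusted p 0.311, 0.432 and 0.413). With 4 arrays such a likeness is a description only.

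Among the calcium pumps, Atp2a2 (SERCA2) gave closely similar readings in both groups. Its brighter probe set, 1416551_PM_at, read 7.94 and 7.98 in the Blnc1 arrays, against 7.96 and 7.95 in the vector arrays. Both vector arrays lay between the Blnc1 arrays. The log2 fold change was 0.0090 ± 0.076 (SE, limma adjusted p = 0.964), and its 95% interval covered folds of 0.885 to 1.14. This was the narrowest interval of the 6 probe sets. The value was negative after median centring (-0.0069) and after repeated quantile normalization (-0.0012), so it has no direction.

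The dimmer Atp2a2 probe set, 1437797_PM_at, read 6.03 and 6.16 in the Blnc1 arrays, against 6.02 and 6.17 in the vector arrays. Each group spanned about the same range, with gaps between replicates of 0.13 in Blnc1 cells and 0.15 in vector cells. The log2 fold change was 8.0e-04 ± 0.095 (SE, limma adjusted p = 0.998), and only 0.432% of all probe sets had a smaller absolute difference. Its 95% interval covered folds of 0.852 to 1.18. This value too turned negative after median centring (-0.015) and repeated quantile normalization (-0.0099). The brighter minus the dimmer probe set differed between the groups by 0.0082 (exact two-sided permutation p = 1, smallest possible 0.333), and its values in the groups overlapped.

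Atp2a1, the muscle-type pump, was read by probe set 1419312_PM_at at 4.05 and 4.04 in the Blnc1 arrays, against 3.99 and 4.06 in the vector arrays. Both Blnc1 arrays lay between the vector arrays, and all 4 were below their array medians. The log2 fold change was 0.021 ± 0.078 (SE, limma adjusted p = 0.919), with a 95% interval of folds from 0.889 to 1.16. For a probe set this dim, a low transcript level and the background of the array cannot be told apart. Of 26 skeletal and cardiac muscle markers 6 were measured, and none passed. All 4 arrays read each of these 6 below their own median. Their summed level was 7.10 and 7.04 log2 units in the Blnc1 arrays, against 6.90 and 7.03 in the vector arrays. Des, at 0.37 ± 0.11, and Tnnc1, at 0.29 ± 0.12 (SE), had the largest differences of them, with limma adjusted p of 0.152 and 0.268. Tnnc2 went the other way, at -0.25 ± 0.12 (SE, limma adjusted p = 0.344). Ckm, Myog and Mylpf stood at 0.059, 0.060 and 0.038. In such bulk samples a change in the share of a cell type and a change in RNA per cell cannot be told apart.

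**Figure D2:**
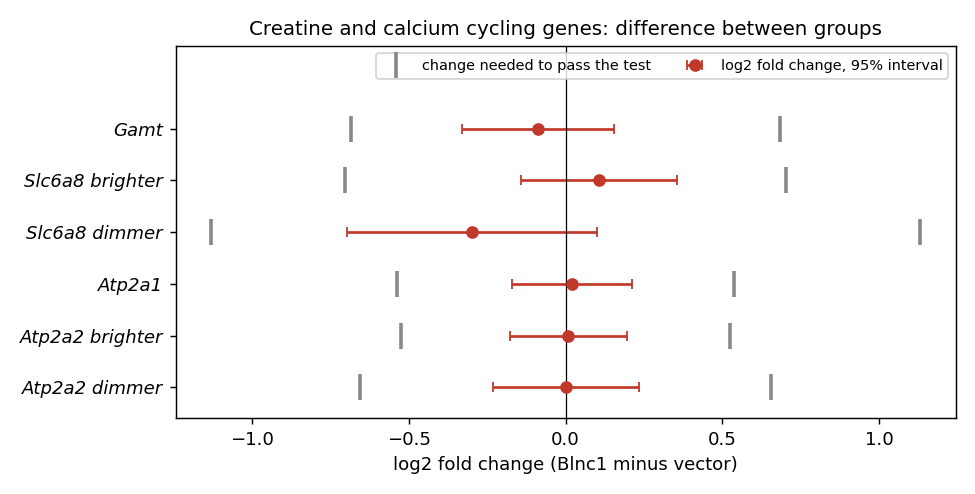
Log2 fold change, Blnc1 minus vector, of each probe set with its 95% interval (red; limma, n = 2 arrays each), and the change in either direction that its error would have required to pass the test (grey marks). All 6 intervals include 0, and all 6 values lie inside the grey marks.

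The size of observed difference that this fit could have called sets how far these results reach. Limma's error for each probe set draws partly on the spread over all probe sets. With that error, the smallest passing fold would have been 1.44 for the brighter and 1.58 for the dimmer Atp2a2 probe set. It would have been 1.45 for Atp2a1 and 1.61 for Gamt. For Slc6a8 it would have been 1.63 on the brighter and 2.19 on the dimmer probe set. The median over all probe sets was 1.54. These folds are cut-offs for the observed difference in this fit, with its variance prior. They are not limits on the true change, and the intervals above show which folds the values leave possible.

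**Figure D3:**
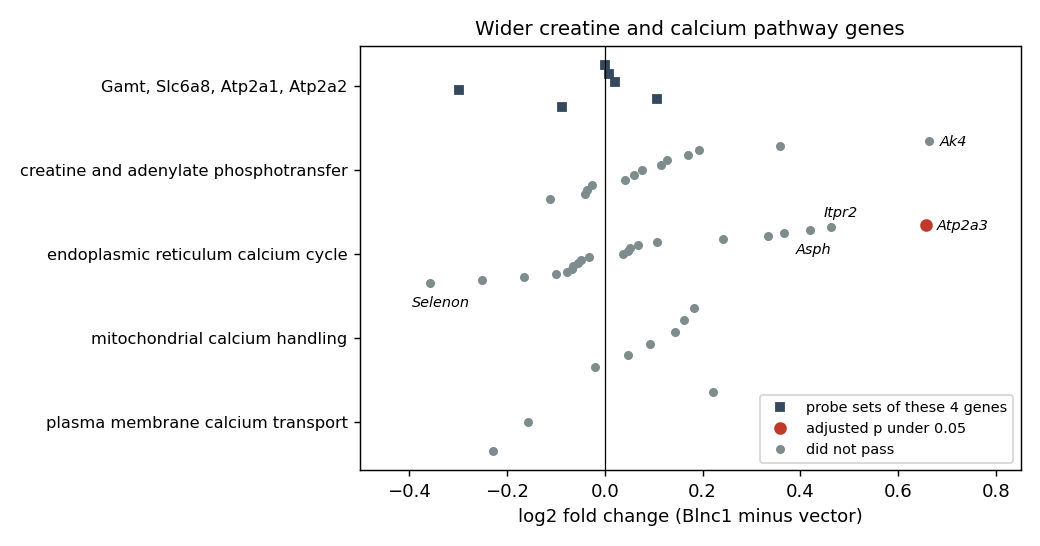
Log2 fold change (horizontal axis, Blnc1 minus vector) of the 6 probe sets of Gamt, Slc6a8, Atp2a1 and Atp2a2 (squares) and of 43 other pathway genes in 4 lists (circles, 1 probe set per gene, red where the adjusted p was under 0.05). Atp2a3, at 0.66, is the red point.

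The wider pathways were read from 4 lists, with the probe set of the highest mean level standing for each gene. Of 43 measured genes 1 rose and none fell at an adjusted p of 0.05, beside 1.23% of all genes (0.86% higher and 0.366% lower), and 10 had an unadjusted p under 0.05, beside 20.7% of all genes. Positive values were found for 26 of the 43, beside 51.6% of all genes, and groups that did not overlap for 24, beside 53.2%. None of these shares is read as particular to the lists. The median was 0.051, beside 0.0073 over all genes. The gene that rose was Atp2a3, which encodes SERCA3, a pump known best from blood cells and some epithelia. It read 8.06 and 8.21 in the Blnc1 arrays, against 7.43 and 7.52 in the vector arrays. Both Blnc1 arrays lay above both vector arrays. The log2 fold change was 0.66 ± 0.090 (SE, limma adjusted p = 0.0460), a fold of 1.58. It stayed positive, between 0.58 and 0.73, in each of the 9 alternatives computed for it, but the call was lost under several of them, among these repeated quantile normalization (adjusted p = 0.0587) and leaving out any one of the arrays (adjusted p between 0.114 and 0.166). Its adjusted p over these alternatives lay between 4.6e-04 and 0.166.

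Within each array, Atp2a3 minus the brighter Atp2a2 probe set was 0.12 and 0.23 log2 units in Blnc1 cells, against -0.53 and -0.43 in vector cells. The groups did not overlap, and the difference of 0.65 had an exact two-sided permutation p of 0.333, the smallest that 2 arrays against 2 allow. Because Atp2a3 was singled out by passing on these same arrays, and Atp2a2 barely differed, this outcome is no further evidence. Since probe sets differ in affinity, only the change of this difference between groups can be read, not which pump is more abundant. The leukocyte markers measured, Adgre1, Cd3e and Csf1r, stood at log2 fold changes of 0.10, 0.057 and -5.3e-04. Their summed level was 6.96 in both Blnc1 arrays, against 6.86 and 6.97 in the vector arrays. All 4 arrays read Adgre1 and Csf1r below their own median.

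The endoplasmic reticulum calcium list had 21 measured genes of 32, with a median log2 fold change of 0.036. Of these, 11 were positive and 10 negative, and the values lay between -0.36 and 0.66. After Atp2a3 the smallest p-values belonged to Itpr2, an inositol trisphosphate receptor that releases stored calcium, and Asph, whose locus also encodes the membrane proteins junctin and junctate. Itpr2 read 7.76 and 7.74 in the Blnc1 arrays, against 7.23 and 7.34 in the vector arrays, which puts it at 0.46 ± 0.082 on the log2 scale (SE, limma adjusted p = 0.0698). Asph stood at 0.42 ± 0.086 (SE, adjusted p = 0.0880). Neither passed. The further probe sets of both genes had smaller positive values, 0.14 and 0.22 for Itpr2 and 0.065 to 0.27 for Asph.

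The creatine and adenylate phosphotransfer list had 13 measured genes of 18. On the probe set standing for each gene none passed, 9 were positive and the median log2 fold change was 0.076. Ak4, a mitochondrial adenylate kinase, read 7.77 and 8.13 in the Blnc1 arrays, against 7.05 and 7.52 in the vector arrays. The groups did not overlap, but replicates differed by 0.36 and 0.46, and the log2 fold change of 0.66 ± 0.19 (SE) did not pass (limma adjusted p = 0.149). Its further probe sets disagreed. That at 0.85 ± 0.12 (SE) passed, with a limma adjusted p of 0.0460. The dimmest stood at -0.22. Mat2b, the regulatory subunit of an enzyme that makes the methyl donor used by Gamt, stood at 0.36 ± 0.13, and Slc25a4, the ADP/ATP carrier ANT1, at 0.19 ± 0.076 (SE, limma adjusted p = 0.209 and 0.247). Ckm, the muscle creatine kinase and the only creatine kinase read here, stood at 0.059 ± 0.097 (SE, limma adjusted p = 0.798). It read 5.05 and 5.05 in the Blnc1 arrays, against 4.88 and 5.10 in the vector arrays. All 4 arrays read it below their own median.

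Mitochondrial calcium handling was read by 6 genes of 9, with 5 positive values, a median of 0.12 and none past the test (limma). On the probe set standing for each gene, none had an unadjusted p under 0.05. Mcur1, a regulator of the calcium uniporter, stood at 0.18 ± 0.077 (SE). A dimmer Mcur1 probe set stood at 0.29 ± 0.091 (SE, limma unadjusted p = 0.0198, adjusted p = 0.180). The uptake gatekeeper Micu2 stood at 0.14 ± 0.090 and the uniporter Mcu at 0.16 ± 0.13 (SE). Of the plasma membrane calcium transporters 3 genes of 11 were measured and none passed. On the probe set standing for each gene, 1 had an unadjusted p under 0.05 (limma). The cation channel Trpv2 stood at 0.22 ± 0.087 and the calcium pump Atp2b1 at -0.23 ± 0.16 (SE). The further Atp2b1 probe sets stood at -0.069 and -0.22. The calcium channel subunit Cacna2d1 stood at -0.16 ± 0.17 (SE). Its dimmer probe set stood at -0.34 ± 0.089 (SE, limma unadjusted p = 0.00827, adjusted p = 0.130), with both Blnc1 arrays below both vector arrays. All 4 arrays read the Trpv2 probe set, both Cacna2d1 probe sets and the dimmer Mcur1 probe set below their own median. The same held for the Atp2b1 probe set at -0.22.

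Osteoblast and neural markers were measured because Alpl is abundant in bone and Ckb in brain. The 2 measured of 10 bone and cartilage markers stood at -0.15 for Bglap and -0.049 for Sp7. The 2 measured of 8 neural and glial markers, Syn1 and Rbfox3, stood at -0.13 and -0.032. The endothelial marker Kdr stood at -0.0045. None of these 5 passed or had an unadjusted p under 0.05 (limma). All 4 arrays read each of them but Sp7 below their own median.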

How the data were processed

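Total RNA was labelled with biotin and hybridised to Affymetrix mouse PM Strip arrays, 4 in all. The deposited values are on a log2 scale, read from their range of 2.70 to 13.29; per the submitters' processing notes the authors used RMA, affy and limma, with no versions or settings named. Raw intensities were not used here, so the summary could not be varied, and slides and scan dates are not given in the sources used here. The table held 23634 probe sets, 35 of them controls, and how they were chosen is not given there. Of the 23599 tested, 16692 had 1 gene symbol in GEO's platform annotation, 372 several and 6535 none; 16639 had an Entrez ID in the reference table (GRCm38.p6). Coordinates are not printed, for want of a genome.

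Groups came from the sample titles. All probe sets were fitted with limma 3.58.1 in R 4.3.3 (lmFit, eBayes, two-sided, no covariate, no filter), with Benjamini-Hochberg adjustment over 23599 probe sets and a threshold of 0.05. The change needed to pass was computed from limma's error for each probe set at the largest unadjusted p that passed (4.62e-04). The fit was tested on simulated data. Named were all probe sets of the 10 genes, of each pathway list the genes past the threshold and the 3 with the smallest p, the 3 genes most like the probe set with the smallest p, and adipocyte markers; Ckm, muscle, leukocyte, bone, neural and endothelial markers, sex-linked genes and the Blnc1 transcript were added. The genes, lists and tests were chosen with earlier results of these data known. The alternatives were other normalizations, variance priors, filters, thresholds, averaging a gene's probe sets, a block on replicate number and leave-one-out fits.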

Additional observations from a re-analysis of the deposited data

How the results depend on the processing

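No probe set of Gamt, Slc6a8, Atp2a1 or Atp2a2 passed under any of the 13 alternatives run; their lowest limma adjusted p was 0.264. An unadjusted p under 0.05 was reached by the dimmer Slc6a8 probe set without vector replicate 1 (0.0271) and without Blnc1 replicate 1 (0.0362). A filter on dim probe sets kept 3 of the 6. Signs were not stable. The brighter Atp2a2 probe set was -0.0012 after repeated quantile normalization, -0.0069 after median centring and -0.011 without Blnc1 replicate 2. The dimmer one was -0.0099, -0.015 and -0.066 there, and -0.074 without vector replicate 1. Atp2a1 was -0.016 without vector replicate 1, Gamt 0.0057 without vector replicate 2 and the brighter Slc6a8 probe set -0.011 without Blnc1 replicate 2. On their brightest probe sets, Cacna2d1 was 0.10 without vector replicate 2 and Atp2b1 0.018 without Blnc1 replicate 2. The dimmer Slc6a8 probe set stayed negative (-0.48 to -0.12). With 1 array left out the ranges were -0.011 to 0.029 and -0.074 to 0.076 for the Atp2a2 probe sets, -0.016 to 0.057 for Atp2a1, -0.18 to 0.0057 for Gamt, -0.011 to 0.22 for the brighter Slc6a8 probe set, -0.42 to 0.10 for Cacna2d1, -0.47 to 0.018 for Atp2b1, 0.0053 to 0.32 for Mcu (lowest without vector replicate 1), 0.069 to 0.22 for Micu2 (lowest without vector replicate 1), 0.18 to 0.53 for Mat2b (lowest without Blnc1 replicate 1), 0.15 to 0.30 for Trpv2 (lowest without vector replicate 2) and 0.43 to 0.90 for Ak4 (lowest without vector replicate 1).

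The count over all probe sets, 219, became 2174 with a variance prior that follows the level, 2224 with that prior made robust, 1021 among probe sets at or above the median level, 958 at an adjusted p of 0.1, 3 at 0.01 and 3 to 38 with 1 array left out (3 without either Blnc1 array). The split of 147 higher and 72 lower became 176 and 135 after median centring. The pathway count of 1 became 10 with the first of these priors (8 higher, 2 lower), 9 with the robust one, 4 among brighter probe sets, 4 at 0.1 and 2 after averaging a gene's probe sets. It was 0 at 0.01, after repeated quantile normalization and without probe sets whose names carry the suffix x, s or a. That filter leaves out the Atp2a3 probe set, whose suffix is a. With the first prior Atp2a3, Slc25a4, Asph, Itpr2, Calr, Ak4, Sri, Mcur1, Fkbp1a and Mat2b passed, Calr (-0.25) and Fkbp1a (-0.17) being lower; with the robust prior Ak4 did not. The cause of these shifts was not tested. With the replicate number as a block 30 probe sets and 0 pathway genes passed (Atp2a3 limma adjusted p = 0.0819). The replicate deviations correlated at 0.089 between groups over all probe sets. No label says whether samples of the same number were paired, and with 2 arrays per group this correlation cannot settle it. The values of the named pathway genes under the alternatives were computed after seeing the data.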
